A study of Mus musculus with 20 samples.

Results

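The homeobox genes of brain patterning were taken as the Hox genes of the 4 clusters and the Dlx, Lhx, Meis, Pbx, Nkx, Otx, Pax, Isl, Gsx and Irx genes and the Six3 family, matched by the current symbol of the transcript that each array probe was designed for. By this rule 100 genes with 126 probes were members, of 20972 genes and 55681 probes on the array. The rule used names alone and no measured value. Nkx1-1 was the 1 gene of the pattern in the reference table without a probe.

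The study asked how the HIV-1 protein Tat, made in the brain, changes the transcriptional response to methamphetamine (Meth), and measured RNA on 1-colour Agilent arrays of 4 groups of 5 mice. The p-values below measure the spread between these 20 samples. All 20 mice were C57BL/6J males that carried a tetracycline-binding regulator under the promoter of Gfap, an astrocyte gene, and all were given 100 mg/kg doxycycline. Tat+ mice also carried the Tat transgene under the element that this regulator activates, so that Tat came from cells with an active Gfap promoter, and Tat- mice lacked it. Tat-/Sal and Tat+/Sal mice received saline and Tat-/Meth and Tat+/Meth mice received 2 mg/kg Meth on 7 days. The labels give an age of 6 to 7 weeks, the left hemisphere as the tissue and 24 h from the last injection to collection. The study's methods instead give 3 to 5 months and the caudate putamen. They also give a challenge of 1 mg/kg Meth to every mouse, after 7 days without injections and 1 h before collection. By the methods, then, the saline groups were not free of Meth.

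Homeobox genes code for transcription factors that bind DNA through a homeodomain and give cells of the embryo their position and type. Hox genes act along the hindbrain and spinal cord, while Dlx and Gsx genes pattern the ventral forebrain, from which the striatum and its interneurons arise. Meis and Pbx proteins are partners that bind DNA together with other homeodomain proteins, and several members remain active in adult striatal neurons: Isl1 in direct-pathway and cholinergic neurons, Six3 in indirect-pathway neurons, and Nkx2-1, Lhx6 and Lhx8 in interneurons.

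The promoters of 4 members are shown because these genes moved in opposite directions in the main comparison below: against Tat-/Sal mice, those of the Tat-/Meth group had more Nkx2-1 and Meis2 signal and less of Pax7 and Nkx1-2. Each is the RefSeq window of 300 bases on build GRCm38.p6, all on the minus strand, at chr12:56536859-56537158 for Nkx2-1, chr2:116064570-116064869 for Meis2, chr4:139832919-139833218 for Pax7 and chr7:132599588-132599887 for Nkx1-2. Capitals mark CpG dinucleotides, of which the windows hold 12, 13, 17 and 21 in that order.
Nkx2-1: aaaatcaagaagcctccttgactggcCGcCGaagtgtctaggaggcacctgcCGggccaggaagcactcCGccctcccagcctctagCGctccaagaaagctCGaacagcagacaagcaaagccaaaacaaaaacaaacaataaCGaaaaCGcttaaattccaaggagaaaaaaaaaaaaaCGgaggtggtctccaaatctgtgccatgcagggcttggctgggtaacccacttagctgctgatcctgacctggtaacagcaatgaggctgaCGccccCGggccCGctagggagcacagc
Meis2: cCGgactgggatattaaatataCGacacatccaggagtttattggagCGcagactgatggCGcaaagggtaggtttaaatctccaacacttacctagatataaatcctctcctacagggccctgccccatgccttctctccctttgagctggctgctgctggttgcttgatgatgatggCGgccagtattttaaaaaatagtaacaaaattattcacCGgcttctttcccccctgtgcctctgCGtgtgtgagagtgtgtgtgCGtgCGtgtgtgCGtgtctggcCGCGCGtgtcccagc
Pax7: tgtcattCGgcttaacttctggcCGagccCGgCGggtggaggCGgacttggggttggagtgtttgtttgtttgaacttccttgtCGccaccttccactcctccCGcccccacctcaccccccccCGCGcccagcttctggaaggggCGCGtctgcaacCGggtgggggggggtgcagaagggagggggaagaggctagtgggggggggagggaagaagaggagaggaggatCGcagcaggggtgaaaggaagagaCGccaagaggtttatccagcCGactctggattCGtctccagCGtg
Nkx1-2: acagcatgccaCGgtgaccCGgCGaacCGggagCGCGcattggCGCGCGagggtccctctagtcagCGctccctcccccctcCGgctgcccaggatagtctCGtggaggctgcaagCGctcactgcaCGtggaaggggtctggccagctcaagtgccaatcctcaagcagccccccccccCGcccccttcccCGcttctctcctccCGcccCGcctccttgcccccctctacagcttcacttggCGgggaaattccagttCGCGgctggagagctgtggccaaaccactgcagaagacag

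Across the 79 promoter windows of the 66 members that matched the promoter table, the median ratio of observed to expected CpG was 0.689, and over all 32851 windows it was 0.384. Their median GC content was 59.7%, against 52.7% over all windows. The Sp1-type GC box GGGCGG, searched on both strands, was in 53.2% of the members' windows and 35.7% of all, and in 3 of the 4 windows shown, all but that of Meis2. The homeodomain core TAATTA, which reads alike on both strands, was in 5.06% of the members' windows and 5.29% of all, and the Meis-type letters TGACAG were in 16.5% and 19.2%. None of the 4 windows shown held either of these. These are matches of letters and were not tested.

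The tissue was checked against marker lists of brain regions. All 10 striatal markers measured, among them Drd1, Drd2 and Ppp1r1b, were well above background on all 20 arrays. Markers of other regions were detected as well, with 6 of 8 hypothalamus markers, 4 of 8 of thalamus and midbrain and 3 of 8 of cortex and hippocampus on all 20 arrays. Of 6 markers of cerebellum and hindbrain with a probe, 2 were on all 20 arrays, and Gabra6, Atoh1 and Cbln3 were among those on none. The serotonin transporter gene Slc6a4, of the thalamus and midbrain list, was also on none. In whole tissue, fewer cells of a type and less RNA per cell cannot be told apart.

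A fact of the arrays touches each comparison with Tat-/Meth. The 5 Tat-/Meth arrays filled slide 1 and no other group was on it, so slide and group cannot be told apart there. Slide 2 held the 5 Tat-/Sal and 3 Tat+/Meth arrays, and slide 3 held 2 Tat+/Meth and the 5 Tat+/Sal arrays. The control spots at the bright corners of the arrays had log2 signals of 14.7 to 15.1 on slide 1, but 16.8 to 17.4 elsewhere. Values below are log2 processed signals less the array's own 75th percentile, brought to a common level, and levels of different probes cannot be compared with each other.

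Detection divided the members by family. "Well above background" is the scanner software's mark for a spot whose signal exceeds its local background by more than the noise allows. By the best probe of each gene, 27 of the 100 genes were well above background on all 20 arrays, 20 on 10 to 19 arrays, 34 on 1 to 9, and 19 on none. Over all genes with a symbol, 66.8% were marked on all 20 arrays and 9.02% on none. The members were thus detected less often than the array as a whole, as a description without a test.

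**Figure D1:**
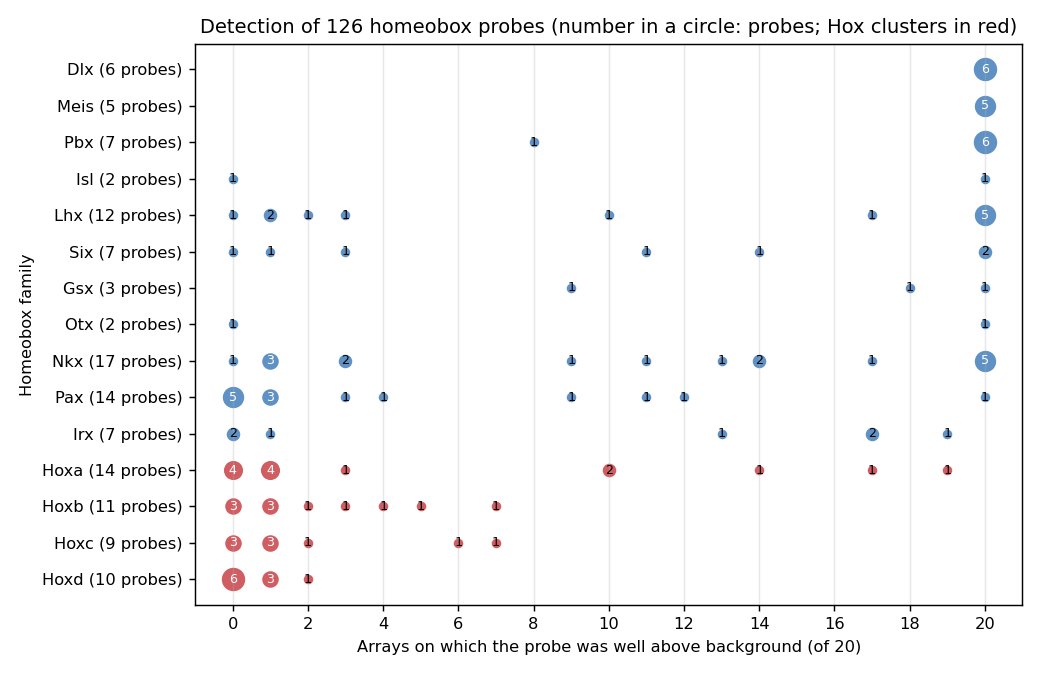
Number of arrays, of 20, on which each of the 126 homeobox probes was well above background, by family. Each circle stands for the number of probes written in it. All Dlx and Meis probes lie at 20, and no probe of the Hox clusters, in red, does.

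All 6 Dlx genes, all 3 Meis genes and Pbx2, Pbx3 and Pbx4 were detected on all 20 arrays. So were Gsx1, Isl1, Lhx2, Lhx3, Lhx6, Lhx8, Nkx2-1, Nkx2-2, Nkx2-9, Nkx6-2, Otx2, Pax6, Six3 and Six5. Several of these mark lineages of the ventral forebrain (Gsx1, Isl1, Lhx6, Lhx8, Nkx2-1, Six3), Nkx2-2 and Nkx6-2 belong to oligodendrocyte programmes, and Otx2 is known from the choroid plexus. Where a gene had several probes, not all were detected: Pax6 had 1 probe on all 20 arrays and 1 on none.

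The Hox clusters were the reverse. None of 39 Hox genes was detected on all 20 arrays and 13 were detected on none: Hoxa5, Hoxa10, Hoxa11, Hoxb1, Hoxb7, Hoxc5, Hoxc8, Hoxc13, Hoxd1, Hoxd4, Hoxd8, Hoxd9 and Hoxd12. Of 44 Hox probes, 36.4% were detected on no array, against 13.4% of all probes. Hoxa9, a gene of trunk patterning, reached 19 arrays with its best probe, followed by Hoxa6 with 17 and Hoxa4 and Hoxa7 with 10 each. No gene of the Hoxb, Hoxc or Hoxd clusters passed 7 arrays. Hoxb5 was detected on 3 arrays, 1 each of Tat-/Meth, Tat+/Meth and Tat+/Sal. Outside the Hox clusters, genes detected on none included the cortical gene Otx1 and Irx5, Isl2, Lhx5 and Pax9.

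Detection of the dimmer members varied from array to array. The number of member probes well above background was 48, 44, 42, 42 and 69 in Tat-/Meth replicates 1 to 5 and 69, 63, 66, 60 and 47 in Tat-/Sal. It was 50, 42, 52, 66 and 61 in Tat+/Meth and 58, 57, 50, 45 and 47 in Tat+/Sal. The groups overlapped, and Tat-/Meth replicate 5 stood apart from the other 4 arrays of its group. Over all probes the medians of the 4 groups, in that order, were 57.7%, 64.4%, 60.4% and 58.3% well above background.

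Tat-/Meth replicate 5 had more Hox probes marked than any other array. Of 44 Hox probes, 17 were marked on it, against 1 to 11 on every other array. Of 23 member probes marked on exactly 1 array, 16 were marked on this one. It was also the array with the largest share of all probes marked, 70.8%. Results that rest on it are given with and without it.

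The first comparison, Tat-/Meth with Tat-/Sal, asks what Meth sensitization changed without Tat. Nkx2-1, Meis2 and Isl1 were slightly higher in Tat-/Meth mice, as was Lhx6 on 1 of its 2 tested probes, all by under 2-fold. Pax7, Nkx1-2 and Nkx6-1, all dim, were lower, as was Hoxa9 on 1 of its 2 tested probes. Of the 126 probes, 45 passed the filter on low signal (a mean of 6 or more in at least 1 group), 33 of them detected on all 20 arrays. A dim probe could pass through the group in which it was high, so counts over the probes that passed are a description. Called, at an adjusted p under 0.05 and over 2-fold in limma, were 4 member probes of 45, all 4 lower, and of all 31516 probes tested 11.6% were called and 10.9% were called lower.

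At an adjusted p under 0.05 without the fold limit, 8 member probes were higher and 8 lower, where 28.1% of all probes were higher and 22.2% lower. The median log2 difference was 0.09 over the member probes and 0.10 over all probes tested. The median of the members thus lay close to that of the array. On the 33 member probes detected on all 20 arrays the median difference was 0.22, against 0.12 over all 27324 such probes. By adjusted p alone 8 of the 33 were higher and 3 lower, where 8337 and 5196 of the 27324 were.

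**Figure D2:**
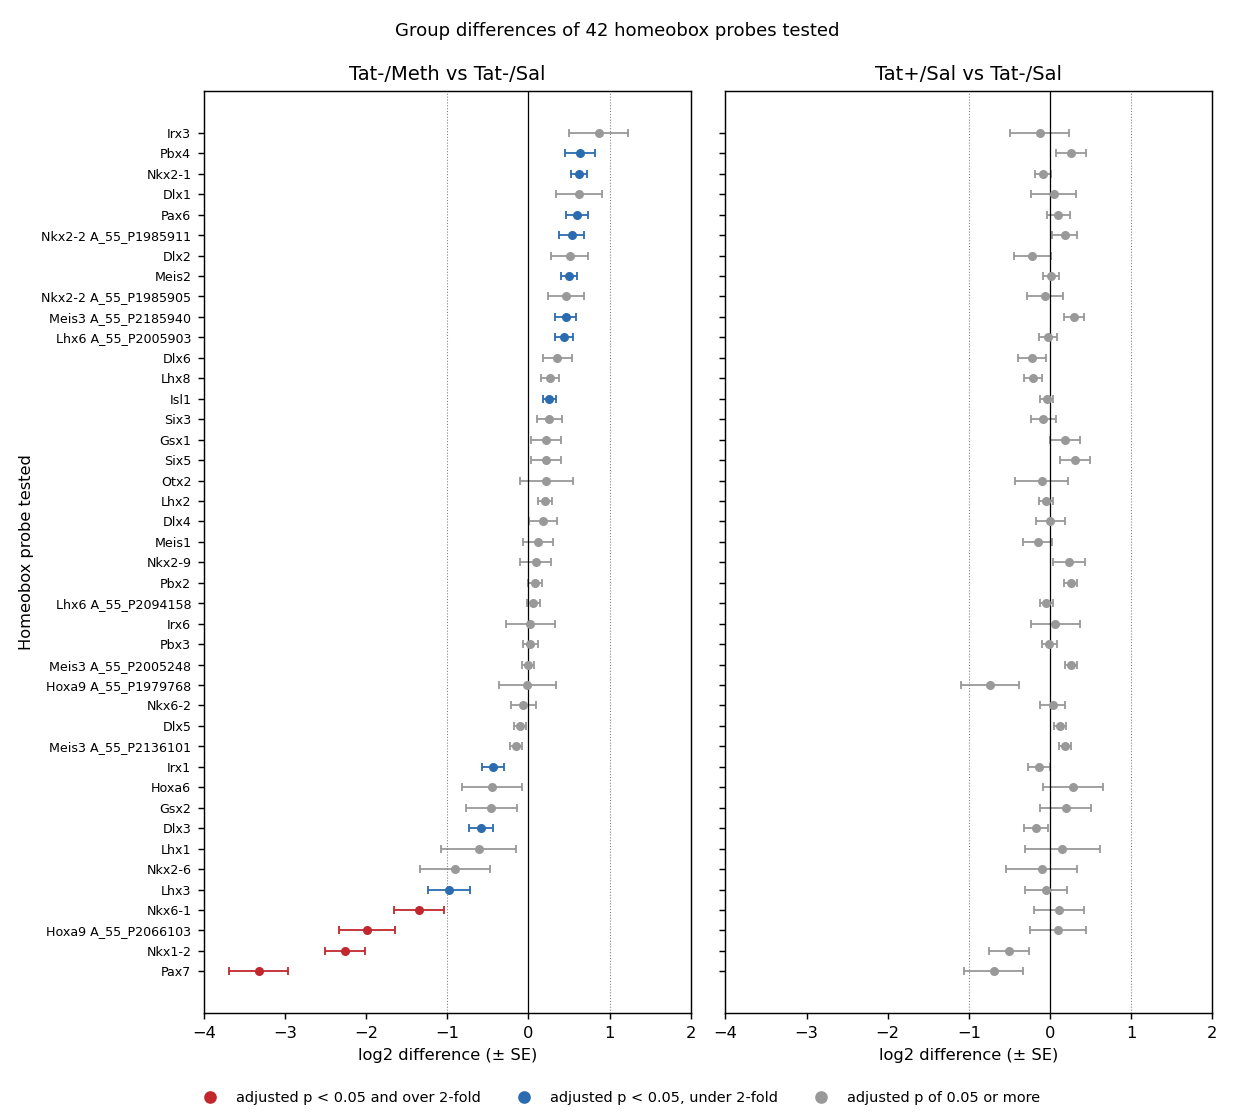
Log2 difference and standard error of homeobox probes tested, for Tat-/Meth vs Tat-/Sal (left) and Tat+/Sal vs Tat-/Sal (right), which share the Tat-/Sal arrays. Dotted lines mark a 2-fold difference. Pax7, Nkx1-2, Hoxa9 A_55_P2066103 and Nkx6-1 lie below the lower line on the left, the first 3 with Tat-/Meth signals that were not well above background, and no probe on the right has an adjusted p under 0.05.

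Nkx2-1, which specifies interneurons of the medial ganglionic eminence, read 9.30, 8.82, 8.78, 8.79 and 8.76 in Tat-/Meth and 8.23, 8.33, 8.35, 8.12 and 8.30 in Tat-/Sal. Every Tat-/Meth array was above every Tat-/Sal array, with replicate 1 highest. The log2 difference was 0.62 ± 0.10 (SE, 5 arrays a group, adjusted p = 3.51e-05 in limma), and the gene read 8.24 ± 0.15 (SD, n = 5) in Tat+/Meth and 8.18 ± 0.09 in Tat+/Sal. The means of the 3 groups other than Tat-/Meth thus lay between 8.18 and 8.27.

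Meis2, a partner protein of striatal projection neurons and their precursors, read 15.89, 15.66, 15.71, 15.83 and 15.92 in Tat-/Meth and 15.27, 15.27, 15.40, 15.27 and 15.30 in Tat-/Sal. These groups did not overlap. The log2 difference was 0.50 ± 0.10 (SE, adjusted p = 0.000506). Tat+/Meth was at 15.31 ± 0.13 and Tat+/Sal at 15.31 ± 0.27 (SD, n = 5), where 1 Tat+/Sal array reached 15.73.

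Isl1, the LIM-homeodomain gene of striatonigral and cholinergic neurons, read 10.93, 10.88, 10.90, 10.90 and 10.88 in Tat-/Meth and 10.71, 10.72, 10.58, 10.55 and 10.64 in Tat-/Sal. The groups did not overlap, though the difference was small, 0.26 ± 0.08 (SE, adjusted p = 0.0118). Tat+/Meth and Tat+/Sal were at 10.49 ± 0.09 and 10.60 ± 0.21 (SD, n = 5).

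Lhx6, which acts after Nkx2-1 in the same interneuron lineage, was measured by a pair of detected probes that differed. On A_55_P2005903 it read 15.41, 15.21, 15.28, 15.19 and 15.39 in Tat-/Meth and 14.66, 14.68, 15.18, 14.68 and 15.07 in Tat-/Sal, with no overlap and a log2 difference of 0.44 ± 0.11 (SE, adjusted p = 0.00343). On A_55_P2094158 the difference was 0.06 ± 0.08 (adjusted p = 0.555). Lhx8, needed for cholinergic neurons, was at 11.09 ± 0.17 in Tat-/Meth and 10.82 ± 0.12 in Tat-/Sal (SD, n = 5), a difference of 0.27 ± 0.11 (SE, adjusted p = 0.0523). Its group means were 10.77 ± 0.19 in Tat+/Meth and 10.61 ± 0.22 in Tat+/Sal.

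**Figure D3:**
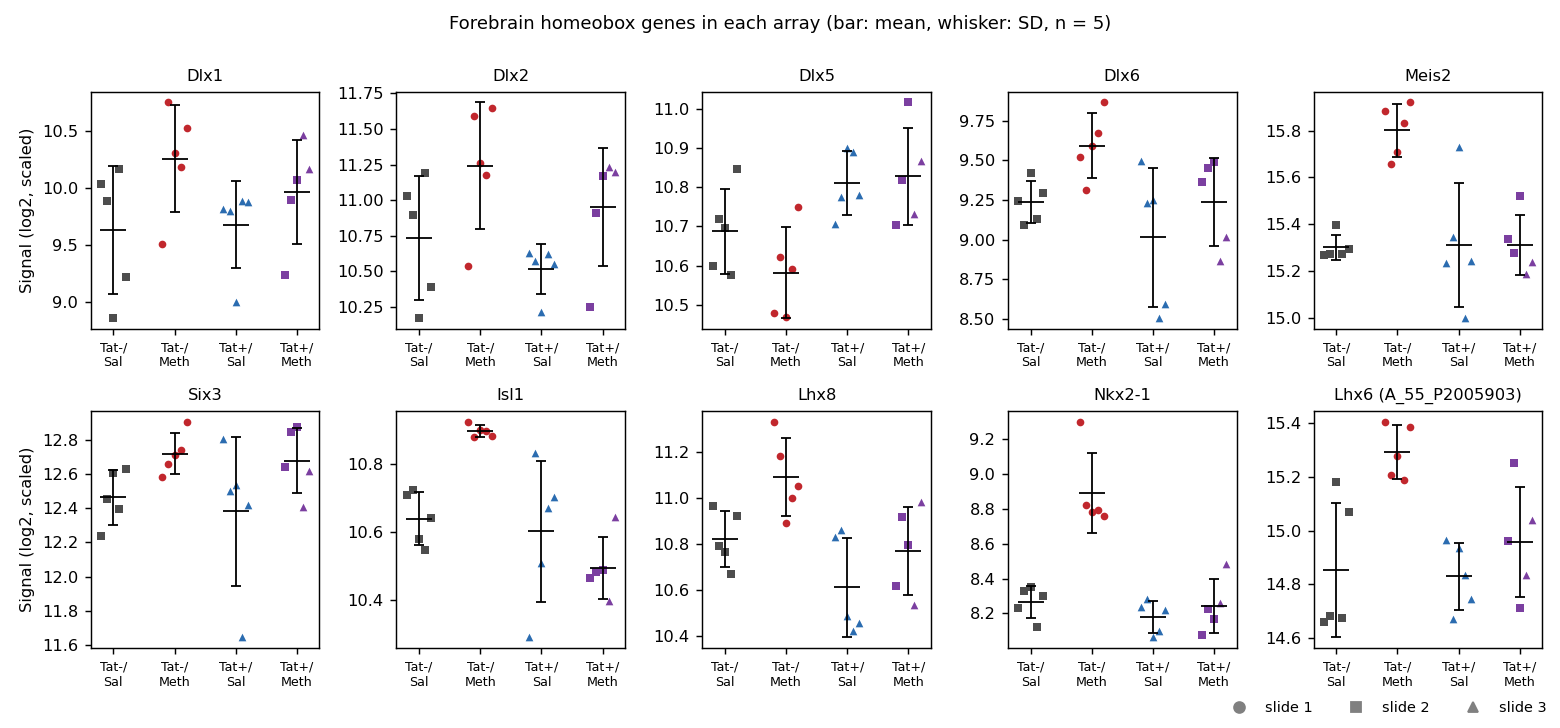
Scaled log2 signal of 10 forebrain homeobox genes in each array, by group, with the group mean (bar) and SD (whisker, n = 5). Marker shape gives the slide, and slide 1 held the Tat-/Meth arrays alone. Nkx2-1, Meis2, Isl1 and Lhx6 A_55_P2005903 lie higher in all Tat-/Meth than in all Tat-/Sal arrays, while Dlx1, Dlx2 and Dlx5 overlap.

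Marker lists were set beside these genes. The linear signals of each list were summed, so that its brightest genes weigh most, and the log2 of the sum is given. A list of 8 GABA neuron genes, not restricted to interneurons, held Sst, Npy, Pvalb, Nos1, Gad1, Gad2, Slc32a1 and Th, all detected on all 20 arrays. The summed signal of these 8 ran from 18.16 to 18.27 in Tat-/Meth and from 17.97 to 18.06 in Tat-/Sal. That of 6 cholinergic markers ran from 13.40 to 13.63 and from 13.23 to 13.55, and that of 10 striatal markers from 19.91 to 20.01 and from 19.94 to 20.17. Astrocyte markers ran from 15.68 to 15.96 in Tat-/Meth and from 15.57 to 15.64 in Tat-/Sal. Microglia markers ran from 16.74 to 16.89 and from 17.38 to 17.76, hypothalamus markers from 11.84 to 12.06 and from 12.05 to 12.18, and thalamus and midbrain markers from 12.21 to 12.38 and from 12.40 to 12.49. Choroid plexus markers ran from 14.82 to 15.56 and from 14.45 to 15.28. Thus the sums of the GABA neuron and astrocyte lists were higher on every Tat-/Meth array than on any Tat-/Sal array. The sums of the microglia and thalamus and midbrain lists were lower, and those of the other lists named here overlapped. Th was on both the GABA neuron list and the thalamus and midbrain list. By gene, at an adjusted p under 0.05 in limma, 3 of 8 GABA neuron and 3 of 6 astrocyte genes were higher and 0 lower. Of 6 microglia genes 2 were lower and 0 higher, and of 5 thalamus and midbrain genes tested 2 were lower and 1 higher. Over all probes 28.1% were higher and 22.2% lower. The part of these lists in the homeobox results was not tested.

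Among the Dlx genes, some of which drive the GABAergic fate, only Dlx3 passed the test for Tat-/Meth against Tat-/Sal. Dlx1 was at 10.26 ± 0.47 in Tat-/Meth and 9.64 ± 0.56 in Tat-/Sal, and at 9.97 ± 0.46 in Tat+/Meth and 9.68 ± 0.38 in Tat+/Sal (SD, n = 5). Its neighbour Dlx2 was at 11.24 ± 0.44, 10.74 ± 0.44, 10.95 ± 0.41 and 10.52 ± 0.18 in the same order. Neither difference between Tat-/Meth and Tat-/Sal passed the test (0.62 ± 0.28, adjusted p = 0.0743, and 0.51 ± 0.23, adjusted p = 0.0753), and in both genes Tat-/Meth replicate 1 lay among the Tat-/Sal arrays.

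Dlx5 was at 10.58 ± 0.12, 10.69 ± 0.11, 10.83 ± 0.12 and 10.81 ± 0.08 in Tat-/Meth, Tat-/Sal, Tat+/Meth and Tat+/Sal, and Dlx6 at 9.59 ± 0.20, 9.24 ± 0.13, 9.24 ± 0.28 and 9.01 ± 0.44 (SD, n = 5). Dlx4 was at 6.97 ± 0.23, 6.79 ± 0.21, 6.97 ± 0.46 and 6.79 ± 0.19 in that order. None of these 3 passed the test for Tat-/Meth against Tat-/Sal.

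Dlx3, known from skin, teeth and placenta, was the exception. It read 13.01, 13.23, 12.98, 12.89 and 13.37 in Tat-/Meth and 13.51, 13.58, 13.80, 13.46 and 14.09 in Tat-/Sal, with no overlap. The log2 difference was -0.59 ± 0.15 (SE, adjusted p = 0.00297). Tat+/Meth and Tat+/Sal had means of 13.90 ± 0.30 and 13.51 ± 0.19 (SD, n = 5).

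Among the partners, Meis1 was at 12.11 ± 0.19, 12.00 ± 0.23, 11.74 ± 0.33 and 11.84 ± 0.40 in Tat-/Meth, Tat-/Sal, Tat+/Meth and Tat+/Sal (SD, n = 5). Pbx2 was at 11.98 ± 0.09, 11.90 ± 0.15, 11.93 ± 0.14 and 12.15 ± 0.14, and Pbx3 at 13.78 ± 0.14, 13.76 ± 0.13, 13.88 ± 0.16 and 13.75 ± 0.14. None of the 3 differed between Tat-/Meth and Tat-/Sal by the test. Pbx4 rose by 0.63 ± 0.18 (SE, adjusted p = 0.00822), from 7.24 ± 0.13 in Tat-/Sal to 7.87 ± 0.54 in Tat-/Meth, where replicate 5 read 8.80 and the other 4 arrays 7.39 to 7.78. Without replicate 5 the Pbx4 difference was 0.40 ± 0.11 (SE, adjusted p = 0.00511). The gene was at 7.33 ± 0.16 in Tat+/Meth and 7.50 ± 0.18 in Tat+/Sal.

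Six3, of striatopallidal neurons, was at 12.72 ± 0.12, 12.46 ± 0.16, 12.68 ± 0.19 and 12.38 ± 0.44 in Tat-/Meth, Tat-/Sal, Tat+/Meth and Tat+/Sal (SD, n = 5), and the first pair did not differ by the test (0.26 ± 0.16 SE, adjusted p = 0.182). Gsx1, which acts upstream of Dlx genes in progenitors, was at 7.21 ± 0.08, 7.00 ± 0.41, 7.40 ± 0.31 and 7.18 ± 0.33 in that order. Pax6 and Nkx2-2 were also higher in Tat-/Meth, by 0.60 ± 0.14 (SE, adjusted p = 0.00160) and, on probe A_55_P1985911, by 0.53 ± 0.15 (adjusted p = 0.00804). Irx1 was lower, at -0.44 ± 0.14 (adjusted p = 0.0134).

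The scaling bears on the small differences. Without scaling, the median log2 difference over all probes between Tat-/Meth and Tat-/Sal was -0.33, against 0.10 with the scaling used. On unscaled signals Isl1 reversed to -0.16 (adjusted p = 0.213), Meis2 was 0.08 (adjusted p = 0.570) and Nkx2-1 0.20 (adjusted p = 0.202). Lhx6 A_55_P2005903 was 0.02 (adjusted p = 0.907) and Pbx4 0.21 (adjusted p = 0.380). Each of these values lay above that median.

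The 4 probes called lower were dim. Pax7, which marks dorsal neural tube and muscle stem cells, read 2.55, 4.09, 3.0, 3.63 and 3.84 in Tat-/Meth and 6.75, 6.93, 6.54, 6.73 and 6.80 in Tat-/Sal. It was well above background on all 5 Tat-/Sal arrays and on no Tat-/Meth array. With each Tat-/Meth array set to its lowest signal that was well above background, the group was 2.79-fold lower (adjusted p = 5.45e-07 in limma on the measured values). That size holds for the processed signal alone, as normexp correction gave smaller differences, listed below.

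Nkx1-2, known from the tail end of the embryo, read 4.13, 4.92, 4.74, 4.31 and 5.00 in Tat-/Meth and 7.18, 7.18, 6.48, 6.29 and 7.27 in Tat-/Sal. As with Pax7, no Tat-/Meth array and all 5 Tat-/Sal arrays were well above background. On this probe, A_51_P470304, Tat-/Meth was 3.05-fold lower by the same calculation (adjusted p = 5.52e-07). The other Nkx1-2 probes, A_55_P2131016 and A_55_P2131020, were each well above background on 1 array, of Tat-/Meth, and were not tested.

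Hoxa9 on probe A_55_P2066103 read 4.17, 4.07, 4.29, 3.13 and 5.82 in Tat-/Meth and 6.58, 6.59, 6.50, 6.51 and 5.28 in Tat-/Sal, where 0 of 5 and 4 of 5 arrays were well above background. The highest Tat-/Meth array, replicate 5, lay above the lowest Tat-/Sal array. By the calculation used for Pax7, Tat-/Meth was 2.03-fold lower (adjusted p = 0.000107). The other Hoxa9 probe tested, A_55_P1979768, was well above background on all 10 arrays of these groups and differed by -0.01 ± 0.35 (SE, adjusted p = 0.979), or by -0.38 ± 0.28 (adjusted p = 0.276) without Tat-/Meth replicate 5.

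Nkx6-1, of ventral hindbrain and spinal progenitors, read 5.34, 5.35, 5.05, 4.80 and 4.74 in Tat-/Meth and 6.24, 5.66, 6.26, 6.15 and 7.72 in Tat-/Sal. The groups did not overlap, and 2 of 5 and 5 of 5 arrays were well above background. The log2 difference was -1.35 ± 0.30 (SE, adjusted p = 0.00120).

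**Figure D4:**
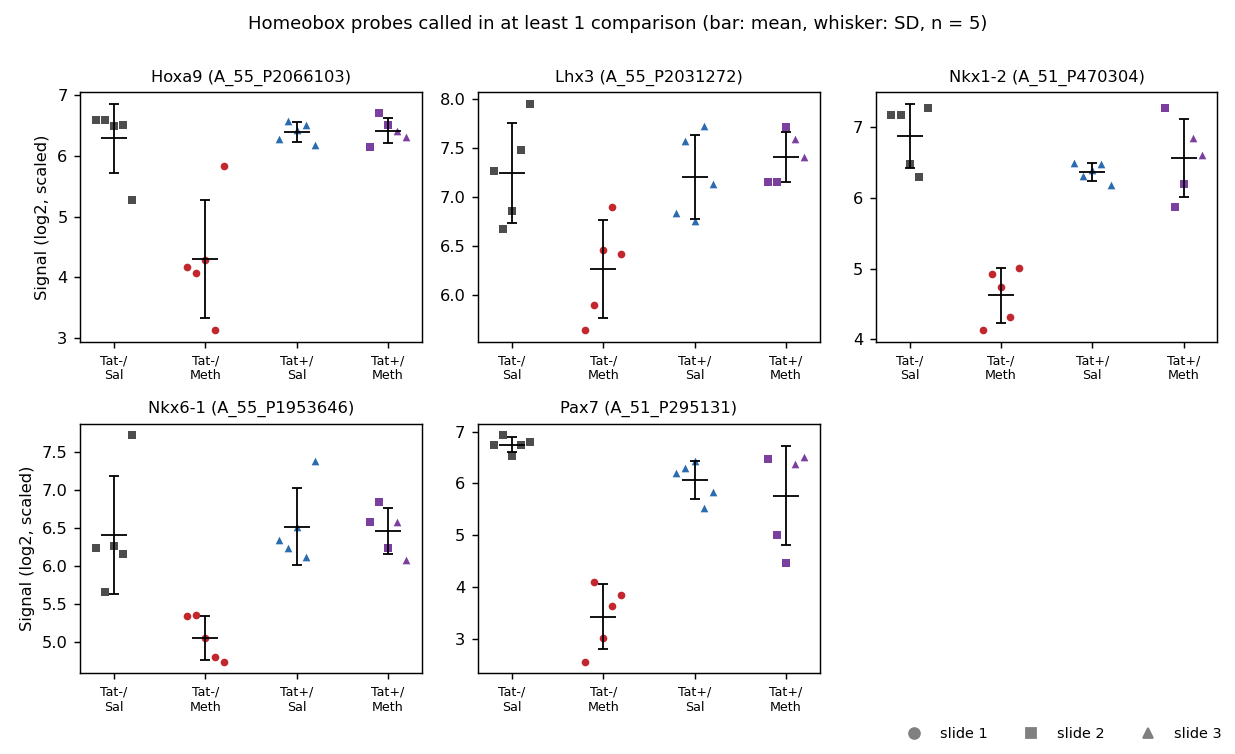
Scaled log2 signal of homeobox probes called in at least 1 comparison, in each array, with the group mean (bar) and SD (whisker, n = 5). Marker shape gives the slide. All 5 Tat-/Meth arrays, on slide 1, lie below every other array for Pax7, Nkx1-2 and Nkx6-1, and overlap with Tat-/Sal for Hoxa9 A_55_P2066103 and Lhx3.

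How the background was removed set the size of these differences. With normexp correction of the raw signal and an offset of 50 the log2 differences were -0.78 for Pax7, -0.64 for Nkx1-2, -0.49 for Hoxa9 A_55_P2066103 and -0.27 for Nkx6-1. No member probe was then called, and Nkx6-1 no longer passed the test (adjusted p = 0.278). Without Tat-/Meth replicate 5, 7 member probes were called in place of 4, a count given without the share of all probes called.

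Lhx3, a motor neuron and pituitary gene, read 5.64, 5.90, 6.46, 6.90 and 6.41 in Tat-/Meth and 7.27, 6.67, 6.86, 7.48 and 7.95 in Tat-/Sal, and 1 Tat-/Meth array lay above the lowest Tat-/Sal arrays. The log2 difference was -0.98 ± 0.26 (SE, adjusted p = 0.00428), and it was -0.29 (adjusted p = 0.170) with normexp correction.

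Meis3, a further Meis partner gene, differed by probe. A_55_P2185940 was higher in Tat-/Meth by 0.46 ± 0.13 (SE, adjusted p = 0.00614), at 8.69 ± 0.17 against 8.24 ± 0.24 (SD, n = 5), with 8.31 ± 0.20 in Tat+/Meth and 8.53 ± 0.21 in Tat+/Sal. A_55_P2005248 differed by -0.01 ± 0.08 (adjusted p = 0.961) and A_55_P2136101 by -0.15 ± 0.08 (adjusted p = 0.0978). For that reason Meis3, Lhx6 and Hoxa9 are described by probe.

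**Figure D5:**
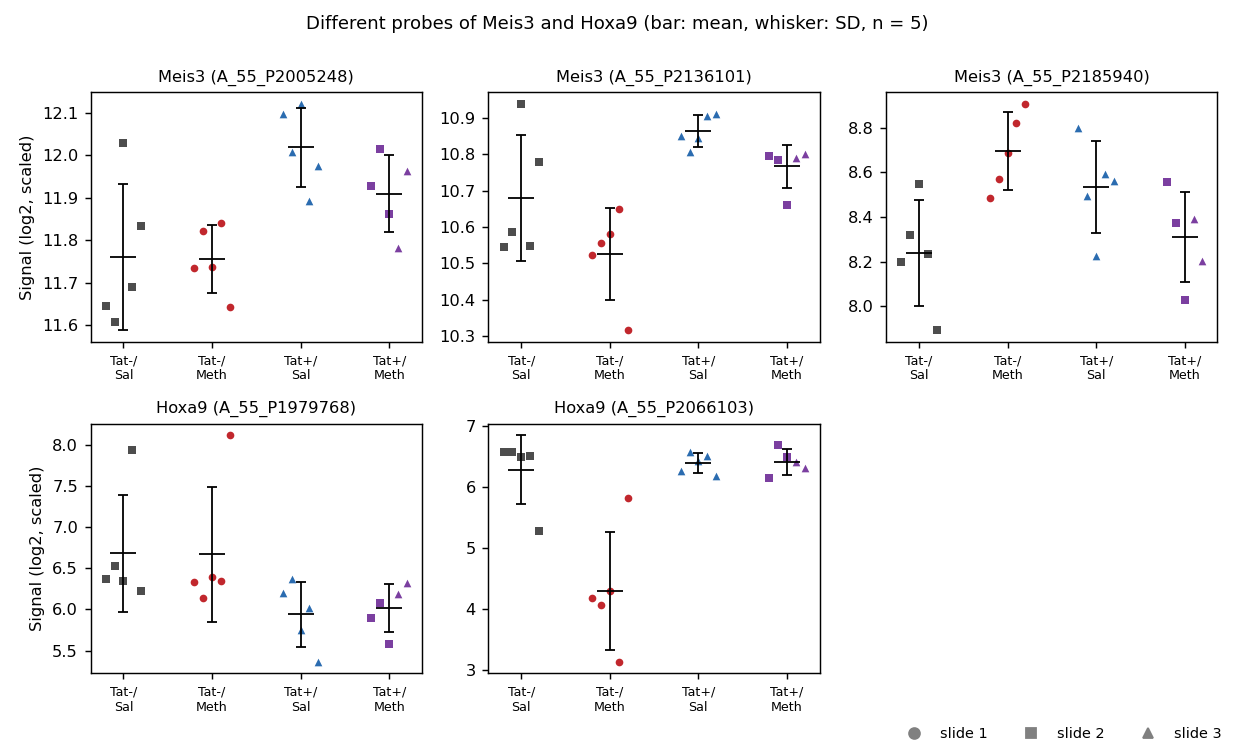
Scaled log2 signal of the tested probes of Meis3 and Hoxa9 in each array, with the group mean (bar) and SD (whisker, n = 5). In Tat-/Meth, Meis3 is high on A_55_P2185940 alone of its probes, and Hoxa9 is low on A_55_P2066103 alone.

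The second comparison, Tat+/Meth with Tat-/Meth, asks what Tat changed in Meth-treated mice, and shares the Tat-/Meth arrays and their slide with the first. Called were 6 member probes of 45, all 6 higher in Tat+/Meth, where 12.0% of all probes were called and 11.3% were called higher. Without the fold limit, 10 member probes were higher and 8 lower, against 23.2% and 30.3% of all probes. The 6 included the 4 probes above and Lhx3.

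Pax7 read 6.47, 5.01, 4.47, 6.37 and 6.50 in Tat+/Meth, where 3 of 5 arrays were well above background. With the Tat-/Meth arrays set as before to their lowest signal well above background, it was 1.40-fold higher in Tat+/Meth (adjusted p = 3.04e-05). Nkx1-2 read 7.28, 5.87, 6.20, 6.85 and 6.61 and was 2.45-fold higher in that way (adjusted p = 3.20e-06). Hoxa9 on A_55_P2066103 read 6.15, 6.70, 6.50, 6.41 and 6.31 and was 2.21-fold higher in that way (adjusted p = 5.18e-05). Every one of these Tat+/Meth values lay above the 5 Tat-/Meth values of its probe. With normexp correction the log2 differences were smaller, 0.50 for Nkx1-2 and 0.51 for Hoxa9 A_55_P2066103.

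Nkx6-1 was at 6.46 ± 0.31 in Tat+/Meth and 5.05 ± 0.29 in Tat-/Meth (SD, n = 5), a log2 difference of 1.41 ± 0.30 (SE, adjusted p = 0.000776). Lhx3 was at 7.40 ± 0.26 and 6.26 ± 0.50, a difference of 1.14 ± 0.26 (adjusted p = 0.00126). In Tat+/Sal these probes were at 6.52 ± 0.50 and 7.20 ± 0.43. With normexp correction Pax7 (0.30, adjusted p = 0.0679) and Nkx6-1 (0.38, adjusted p = 0.140) no longer passed the test for Tat+/Meth against Tat-/Meth.

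Nkx2-1, Meis2 and Isl1 ran the other way. Nkx2-1 was lower in Tat+/Meth than in Tat-/Meth by a log2 difference of -0.65 ± 0.10 (SE, adjusted p = 2.07e-05), Meis2 by -0.49 ± 0.10 (adjusted p = 0.000555) and Isl1 by -0.40 ± 0.08 (adjusted p = 0.000353). In all 3 genes each Tat+/Meth array lay below each Tat-/Meth array. Dlx5 was higher in Tat+/Meth, by 0.25 ± 0.07 (adjusted p = 0.00868), and Dlx3 by 0.80 ± 0.15 (adjusted p = 0.000193). Without scaling, where the median over all probes was 0.25, Nkx2-1 (-0.31, adjusted p = 0.0600), Meis2 (-0.15, adjusted p = 0.281) and Isl1 (-0.07, adjusted p = 0.660) did not pass the test.

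The interaction, which subtracts the Meth effect of Tat- mice from that of Tat+ mice, called 5 member probes of 45, all positive, where 12.4% of all probes were called. At an adjusted p under 0.05 alone 13 member probes passed, against 37.0% of all probes, and it was negative for 5 of them, against 18.1% of all probes. The 5 called were Pax7, Nkx1-2, Hoxa9 A_55_P2066103, Nkx6-1 (1.30) and Lhx3 (1.18), and the first 3 have no measured size, as their Tat-/Meth values were not well above background. With normexp correction the interaction of Hoxa9 A_55_P2066103 (adjusted p = 0.122), Nkx6-1 (adjusted p = 0.596) and Lhx3 (adjusted p = 0.215) did not pass. The 5 negative ones were Pbx4, Meis3 A_55_P2185940, Nkx2-1, Meis2 and Isl1, from -0.80 to -0.37. None of these 5 passed without scaling, where Pbx4 was at -0.32, Meis3 A_55_P2185940 at -0.19, Nkx2-1 at -0.08, Meis2 at -0.01 and Isl1 at 0.12 (adjusted p from 0.355 to 0.954), against a median of 0.42 over all probes.

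Comparisons without the Tat-/Meth arrays showed no called member. For Tat+/Sal against Tat-/Sal, the effect of Tat without Meth sensitization, limma called 0 of 45 member probes, where 0.0444% of all probes were called. At an unadjusted p under 0.05 there were 4 of 45, where 5223 of all 31516 probes passed. The 4 were Meis3 on its 3 probes, higher by 0.18 to 0.30, and Pbx2, higher by 0.25 ± 0.09 (SE), with adjusted p from 0.108 to 0.249. The 95% confidence interval ran from 0.07 to 0.43 for Pbx2 and from 0.10 to 0.42 for Meis3 A_55_P2005248. The methods' t-test with the fold limit also called 0, adjusted or not. These groups shared no slide, with Tat-/Sal on slide 2 and Tat+/Sal on slide 3, and the Tat+/Meth arrays alone link the slides. With slide as a fixed block limma called 0 of all probes in place of 14, and Pbx2 and the 3 Meis3 probes each had an adjusted p of 0.9999. With slide as a random block 48 of all probes and 0 member probes were called, while Pbx2 (0.24, adjusted p = 0.0398) and Meis3 A_55_P2005248 (0.25, adjusted p = 0.0222) passed the test below 2-fold. That fit estimated a correlation of -0.06 within slides. A negative value makes the error of a difference between slides smaller, so these passes are no safeguard against a slide difference.

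For Tat+/Meth against Tat+/Sal, limma called 0 member probes and 0% of all probes. At an unadjusted p under 0.05 there were 5 of 45 member probes, where 3624 of all 31516 probes passed. The smallest adjusted p of a member probe was 0.341. Among the 5 were Dlx3 (0.38), Irx3 (0.84), Nkx2-9 (-0.43) and Pbx2 (-0.23), as log2 differences. Within slide 3, the 1 slide that held both groups, the differences of the tested member probes ran from -0.38 to 0.93 with a median of 0.10.

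Tat+/Meth against Tat-/Sal gave 0 called member probes in limma, where 0.00317% of all probes were called. At an unadjusted p under 0.05 there were 2 of 45, where 1989 of all 31516 probes passed. The 2 were Gsx1 (0.41) and Pax7 (-0.99, log2, adjusted p = 0.778 for both). For Pax7 the slides differed, as the 3 Tat+/Meth arrays on slide 2 averaged 5.31, a difference of -1.44 from the Tat-/Sal arrays of that slide, and the 2 on slide 3 averaged 6.44. The methods' t-test with the fold limit called 0 member probes in both of these comparisons.

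Other lists of genes were counted in the same way. In Tat-/Meth against Tat-/Sal, 72 probes of 111 other homeobox genes were tested, of which 0 were called higher and 10 lower, where 10.9% of all probes were called lower, and 12 were higher and 11 lower by adjusted p alone. The largest falls were in Vax2 (-4.27) and Msx2 (-4.20), named after their values were seen, and 47 of the 111 genes were detected on all 20 arrays. Among 55 probes of 37 other striatal transcription factors, 0 were called higher and 1 lower, Rxrg (-1.26), a retinoid receptor of striatal neurons, with 13 higher and 4 lower by adjusted p alone.

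Among 42 probes of 32 partners and regulators of homeobox genes, such as Polycomb and LIM-binding proteins, 0 were called higher and 1 lower, the corepressor gene Tle2, and 15 were higher and 7 lower by adjusted p alone. Ldb2, which bridges LIM-homeodomain proteins, was higher by 0.42 (adjusted p = 0.00119). The median differences of the 3 lists were 0.09, 0.17 and 0.12, beside 0.10 over all probes tested. In Tat+/Sal against Tat-/Sal limma called 0 probes of each list. At an unadjusted p under 0.05 there were 8 of 72, 7 of 55 and 10 of 42, where 5223 of all 31516 probes passed. Rxrg, Tle2 and Ldb2 were also named after their values were seen.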

How the data were processed

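RNA of 20 mice was measured on 1-colour Agilent arrays. The deposited files hold each array's scanner output, and the authors' image analysis had made the processed signal, a linear intensity with background subtracted and spatial trends removed. The deposited value table, intensities made by the authors, served as an alternative. Its 7831 values below 1 were set to 1 before log2 was taken. Here control spots and outlier-marked spots were left out, spots of a probe averaged, and log2 signals aligned between arrays at their 75th percentile, so faint probes are the least certain. Array number limits the precision. Probes were named through RefSeq accessions.

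Probes with a mean of at least 6 in 1 group were fitted in limma 3.58.1 (R 4.3.3) across all 4 groups without a replicate block, with Benjamini-Hochberg adjustment over 31516 probes. A call needed an adjusted p under 0.05 and over 2-fold. The methods' t-test was run as an alternative.

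Named with values were members called in any comparison, striatal and interneuron families detected on all 20 arrays, Hoxa5, Hoxb5 and Hoxb7, and members whose probes disagreed. Counts cover all members, but some genes are not reported here by name. Other members named below 2-fold were added after their values were seen. Members and lists were chosen with earlier results of these data known. Alternatives covered scaling, background correction, filters, probe summary, slide and replicate blocks, thresholds and leaving out each array. Promoters came from RefSeq's GRCm38.p6 table, in which 66 of 100 members matched.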

Additional observations from a re-analysis of the deposited data

Results flagged for a closer look

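In 15 of 112 groups of 5 arrays tested (13.4%), 1 array stood apart from the other 4 by Dixon's test, where chance alone does so in about 1 of 20 groups. For the number of homeobox probes well above background, Tat-/Meth replicate 5 had 69 and the other 4 arrays 42 to 48. The same array was highest of its group for Dlx4 (7.37), Hoxa9 on A_55_P1979768 (8.12, against 6.14 to 6.40) and Pbx4 (8.80). Tat-/Meth replicate 1 was highest for Nkx2-1 (9.30) and for Lhx6 on A_55_P2094158 (10.08).

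In Tat-/Sal, the array apart was replicate 4 for Hoxa9 on A_55_P1979768 (7.94), replicate 5 for Hoxa9 on A_55_P2066103 (5.28) and Nkx6-1 (7.72), replicate 1 for Lhx6 on A_55_P2094158 (9.97) and replicate 3 for Meis2 (15.40). In Tat+/Meth it was replicate 1 for Gsx1 (6.87) and replicate 3 for Meis3 on A_55_P2136101 (10.66). Tat+/Sal replicate 3 was lowest for both Dlx1 (9.0) and Dlx2 (10.21).

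The Meth effect differed between Tat+ and Tat- mice for 11 of the probes named, by the interaction in limma at an adjusted p under 0.05. Of all probes tested, 37.0% passed the same threshold. Some of the 11 were named because they were called in a comparison, this interaction included, so their number is a description. The difference in log2 effect was negative for Pbx4 (-0.80), Meis3 on A_55_P2185940 (-0.68), Nkx2-1 (-0.56), Meis2 (-0.50) and Isl1 (-0.37). It was positive for Dlx3 (0.97), Lhx3 (1.18), Nkx6-1 (1.30), Hoxa9 on A_55_P2066103 (2.02), Nkx1-2 (2.45) and Pax7 (3.03), the last 3 with Tat-/Meth signals that were not well above background, so that these sizes depend on the background correction. All 11 use the Tat-/Meth arrays, for which slide and group cannot be told apart.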

How the results depend on the processing

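Counts of called homeobox probes, 4 for Tat-/Meth against Tat-/Sal, 6 for Tat+/Meth against Tat-/Meth and 5 for the interaction, moved with the settings as follows, with the share of all probes called under the same setting in brackets, and the cause was not tested unless the setting itself gives it. Without scaling they were 8 for the first and 8 for the interaction (17.7% and 19.9%). With normexp correction, where all 126 probes were tested, they were 0 for the first and 1 for the second (3.32% and 3.20%). A filter on probes well above background gave 9 for the first and 9 for the interaction (13.4% and 13.5%), a filter on the mean over all arrays 2 and 3 (9.92% and 11.1%), and no filter 13, 10 and 11 for all 3 (10.1%, 9.66% and 8.78%), as other probes then entered. The mean over the probes of each gene gave 3 for the second and 3 for the interaction (12.8% and 13.2%), an adjusted p under 0.05 alone 16, 18 and 13 (50.3%, 53.5% and 37.0%), and an adjusted p under 0.01 with over 3-fold 3 for the second and 3 for the interaction (5.89% and 5.96%). Leaving out 1 array gave 4 to 7 for the first, 5 to 8 for the second, 4 to 8 for the interaction and 0 to 0 for the other comparisons. Without Tat-/Meth replicate 5 the first was 7 and the interaction 8. The counts with 1 array left out are given without the share of all probes, so they are not read as a result about the members.

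Counted as signal over the negative controls' 99th percentile, the median numbers of homeobox probes detected were 30, 53, 40 and 35 in Tat-/Meth, Tat-/Sal, Tat+/Meth and Tat+/Sal, in place of 44, 63, 52 and 50. Of the values of named probes, 13 reversed, 60 lost and 79 gained the threshold, and 6282 kept both direction and side. Without scaling, reversals were Isl1 (-0.16), Lhx6 on A_55_P2094158 (-0.36), Pbx2 (-0.34) and Pbx3 (-0.40) for Tat-/Meth against Tat-/Sal, Lhx6 on A_55_P2005903 (0.0047), Lhx8 (0.016) and Pbx2 (0.29) for Tat+/Meth against Tat-/Meth, and Isl1 (0.12) and Meis3 on A_55_P2005248 (0.38) for the interaction.

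With 1 value per gene, that value replaces the probe's own. Taking the brightest probe gave Meis3 (-0.0052) for the first comparison and Hoxa9 (-0.65) and Meis3 (0.15) for the second, and the mean over probes gave Meis3 (0.0039) for the second. Replicate numbers did not pair the samples: deviations of same-numbered arrays had a median correlation of 0.06 (-0.14 to 0.31), against -0.01 for other pairs. With the replicate block, 4, 6 and 5 homeobox probes were called, where 11.6%, 12% and 12.4% of all probes were, and 0 in each other comparison. Faint signal limits the Hox, Pax7 and Nkx1-2 values.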
